A study of Drosophila melanogaster with 2 samples.

Results

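The genes described here encode the subunits of RNA polymerases I, II and III. They are the protein coding genes of the Ensembl annotation of Drosophila melanogaster whose symbol starts with Polr1, Polr2 or Polr3. There are 30 of them among 13968 protein coding genes on the chromosome arms: 7 Polr1, 13 Polr2 and 10 Polr3 genes. The genes were taken by name, and each was scored by whether a summit of a listed ChIP-seq region lies within 500 bp of one of its transcript starts, called a promoter summit below.

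ChIP-seq recovers the DNA that a protein is bound to and reads where on the genome it came from. Here the protein was fu2 with GFP fused to its C-terminus, made from a stable transgene in the fly line fu2-GFP and recovered with an antibody against GFP. The name fu2 is a synonym of prg, a zinc finger gene, in the RefSeq gene table. The only group was whole embryos of both sexes aged 0 to 24 h, with 2 biological replicates numbered 2 and 3. With 1 group and no control library analysed here, no test between conditions exists, and no p-value is given. In whole embryos, weak binding in many cells and strong binding in few cells cannot be told apart.

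RNA polymerase I transcribes the large ribosomal RNA precursor, and RNA polymerase II the messenger RNAs and many small nuclear RNAs. RNA polymerase III transcribes the transfer RNAs, a short ribosomal RNA that is not part of that precursor, and other short RNAs. Each enzyme has a pair of large catalytic subunits, a pair of smaller subunits on which they assemble, a stalk, and small subunits that several of the enzymes use in common. The subunit roles given below are those known from the budding yeast and human counterparts. Cells of every kind need all of these genes, which makes them textbook housekeeping genes.

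The authors' dm6 lists hold 30000 regions for each replicate and 30000 for the pooled list called on both, of which 3033 passed their irreproducible discovery rate (IDR) threshold and are called IDR peaks. Each region carries a signal value given by the authors, which is no read count and is compared here only within a list. It ran from 62.5 to 1729 among IDR peaks. The IDR peaks are also the 3033 strongest regions of the pooled list, so a rank up to 3033 marks one. Depth is unknown, since the lists give no reads, and intervals below are exact (Clopper-Pearson) 95% intervals that cover counting over genes only.

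fu2-GFP IDR peaks stood at 8 of the 30 polymerase genes, among them Polr2F, Polr2H, Polr2J, Polr2B, Polr1D, Polr2C and Polr3E, in order of signal value. That is 26.7% (interval 12.3% to 45.9%), against 17.5% of all protein coding genes, a share inside the interval. By polymerase, 1 of 7 Polr1 genes (14.3%, 0.361% to 57.9%), 5 of 13 Polr2 genes (38.5%, 13.9% to 68.4%) and 2 of 10 Polr3 genes (2.52% to 55.6%) had one. All 3 intervals hold the 17.5% of all genes, and they overlap each other. The median signal value of the 8 genes' peaks was 130 (median rank 924), and that of the 2444 protein coding genes with an IDR promoter summit was 105 (median rank 1334). By arm, an IDR peak stood at 3 of 6 members on 2L, against 16.9% of all protein coding genes there, and 3 of 5 on 3L, against 18.1%. The count was 2 of 11 on 3R (against 19.2%), 0 of 5 on 2R (17.1%) and 0 of 3 on the X chromosome (15.7%). With so few members on each arm, differences from the background were not tested.

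Listed regions, IDR peaks included, were common at the polymerase genes. In the pooled list 25 of 30 (83.3%, interval 65.3% to 94.4%) had a promoter summit, against 55.7% of all protein coding genes, which is below the interval. In replicate 2 the count was 23 (76.7%, against 52.0% of all genes) and in replicate 3 it was 25 (83.3%, against 56.0%). A promoter summit in both replicate lists was found at 21 members (70.0%), against 43.8% of all genes. The authors name the pooled and replicate lists as peaks together with background, and a listed region outside the IDR peaks is therefore not taken as a bound site. Among genes with a pooled promoter summit, the share that also had an IDR peak was 32.0% for members (8 of 25, interval 14.9% to 53.5%) and 31.4% for all protein coding genes. A pooled promoter summit without an IDR peak was found at 17 of 30 members, against 5340 of 13968 protein coding genes.

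**Figure D1:**
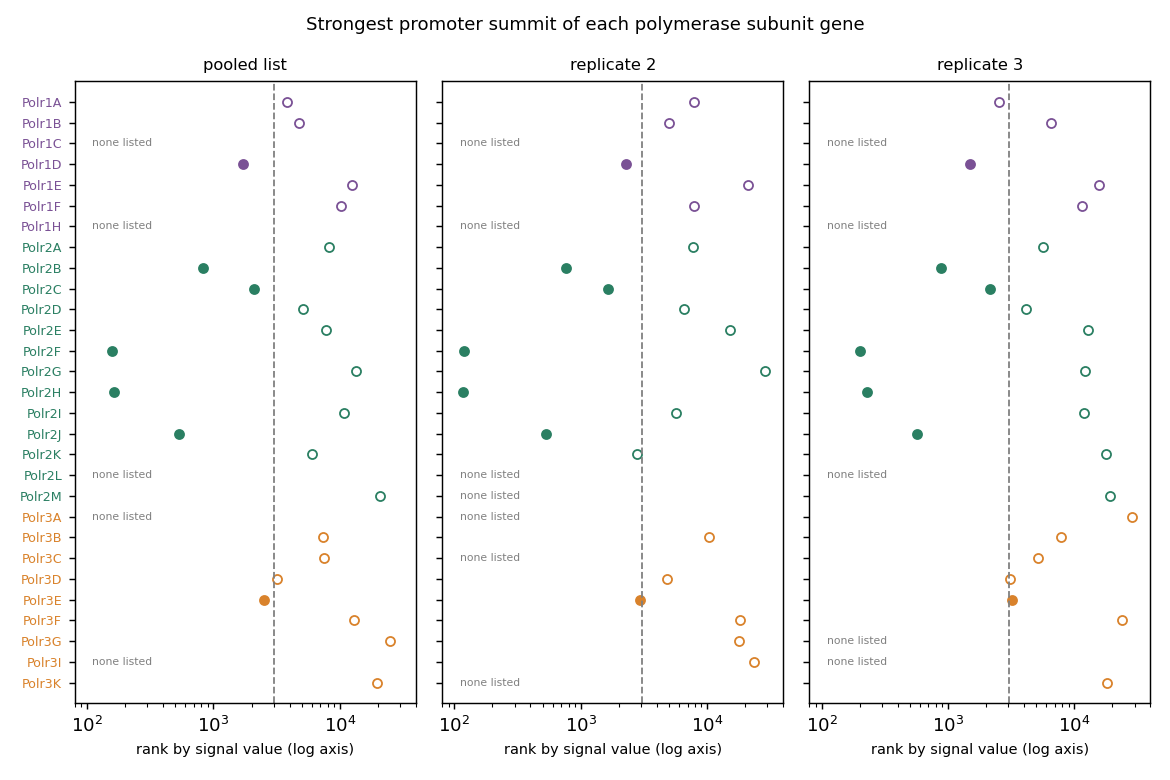
Rank by signal value (log axis, 1 is strongest) of the strongest promoter summit of 29 genes in the pooled list and in each replicate. Filled points are genes with an IDR peak and the dashed line is rank 3033. Polr2F and Polr2H lie far to the left in all 3 lists, and Polr1C, Polr1H and Polr2L have no point in any.

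The small subunits that RNA polymerases I, II and III share held both the strongest peaks and an empty promoter. Polr2F encodes the subunit known as Rpb6 in yeast. Its signal value was 129 in replicate 2 and 167 in replicate 3, ranks 120 and 202, and 295 in the pooled list (rank 158). The summit was 36 bp upstream of the start, in a narrow region at chr3R:5371605-5371846, and the replicate summits were 22 bp apart. Polr2H, counterpart of Rpb8, had signal values of 130 in replicate 2 and 160 in replicate 3, ranks 117 and 229, and 291 in the pooled list (rank 164, chr3L:21728646-21728947). Its pooled summit was 193 bp upstream, and the replicate summits were 144 and 140 bp upstream. A further pooled region sat 7 bp downstream of the Polr2H start with a signal value of 58.6 (rank 3303), just under the IDR peaks.

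The other small shared subunits were weak. Polr2K, the zinc-binding counterpart of Rpb12, reached 25.8 (rank 2767) in replicate 2 but 13.5 (rank 17710) in replicate 3, and 38.8 in the pooled list. Polr2E, counterpart of Rpb5, had 10.2 and 16.4 in replicates 2 and 3 (ranks 15223 and 12748). Polr2L, counterpart of Rpb10, had no listed promoter summit in any list, and the nearest pooled summit was 1485 bp downstream of its start. Polr1C and Polr1D are shared by RNA polymerases I and III only. Counting them, 3 of 7 shared subunit genes had an IDR peak (42.9%, 9.90% to 81.6%), against 5 of 23 genes for subunits that are not shared (21.7%, 7.46% to 43.7%). Both intervals hold the 17.5% of all protein coding genes, and the difference was not tested. Counting the nearest start alone, 2 of the 7 kept an IDR peak, without Polr2H, against 12.7% of all genes. Over the alternative settings the shared count ran from 2 to 4.

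Of the 4 genes for the assembly subunits, related to the alpha subunit of bacterial polymerase, 3 had an IDR peak. That is 75.0% (interval 19.4% to 99.4%), against 17.5% of all protein coding genes. The group is small and was formed with the values known, and the difference was not tested. Polr2J, counterpart of Rpb11, was the strongest, with 65.5 in replicate 2, 106 in replicate 3 and 171 in the pooled list (rank 537), 179 bp upstream of its start at chr2L:17410504-17410677. Its partner gene Polr2C, counterpart of Rpb3, had 35.9, 49.8 and 79.9 in the same lists (pooled rank 2080), 200 bp upstream. The pair used by RNA polymerases I and III did not match each other. Polr1D, counterpart of yeast AC19, had 29.2 in replicate 2, 62.6 in replicate 3 and 90.8 in the pooled list (rank 1707), at chr2L:19133411-19133814. This summit was 130 bp upstream of the nearest of the 2 starts of Polr1D, in an intron of the gene. Polr1C, counterpart of AC40, had no listed promoter summit, and the nearest pooled summit was 740 bp upstream with a signal value of 14.9.

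An IDR peak stood at 1 of the 6 genes for catalytic subunits (16.7%, interval 0.421% to 64.1%), near the 17.5% of all genes. This was Polr2B, the gene of the second largest subunit of RNA polymerase II. It had 54.4 in replicate 2, 83.5 in replicate 3 and 137 in the pooled list (rank 825), 12 bp upstream of its start at chr3R:14125577-14125980, with replicate summits 5 bp apart. Polr2A, the gene of the largest subunit with the repeated C-terminal domain, had 14.0 and 26.8 in replicates 2 and 3 and 31.4 in the pooled list (rank 8205), 326 bp downstream of the start in its UTR. Its replicate summits were 404 bp apart. Polr1A and Polr1B, the catalytic pair of RNA polymerase I, had pooled signal values of 53.2 (rank 3830) and 45.5 (rank 4755). Polr1A differed between replicates: replicate 3 had 45.2 (rank 2519) at 209 bp downstream, inside the coding sequence, and replicate 2 had 13.9 (rank 7849) at 440 bp upstream. The catalytic pair of RNA polymerase III was weaker: Polr3B had 33.7 in the pooled list with replicate summits at the same base, and Polr3A was listed in replicate 3 alone (9.94, rank 28741).

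Among subunits that resemble initiation factors the values straddled the IDR threshold. Polr3E, of the dimer that resembles TFIIF, had 24.6 in replicate 2 (rank 2954), 39.4 in replicate 3 (rank 3178) and 71.0 in the pooled list (rank 2507), 95 bp upstream at chr3L:21031528-21031931. Its dimer partner Polr3D lay just outside the IDR peaks, with 18.2 and 40.2 in replicates 2 and 3 and 60.3 in the pooled list (rank 3195), 42 bp upstream. These are the members just inside and just outside the threshold. Polr3C, Polr3F and Polr3G, of the trimer that opens the promoter, had pooled signal values of 33.2, 23.9 and 16.4, and Polr1E, the counterpart of yeast A49, had 24.3. An IDR peak stood at 1 of the 5 stalk genes (interval 0.505% to 71.6%), and the interval holds the 17.5% of all genes. The stalk genes Polr2D, Polr1F, Polr2G and Polr3I had no IDR peak. Pooled signal values were 43.3 for Polr2D, 27.5 for Polr1F and 23.4 for Polr2G, and Polr3I was listed in replicate 2 alone (8.27).

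None of the 3 genes for zinc ribbon subunits, which take part in RNA cleavage, had an IDR peak (0%, interval up to 70.8%). The interval holds the 17.5% of all protein coding genes. Polr2I had 26.8 and Polr3K 18.9 in the pooled list, and Polr1H had no listed promoter summit, the nearest being 3819 bp upstream. Polr2M, the gene of an associated subunit known as Gdown1 in mammals, had 18.3. The grouping by role was made with these values known and is a description.

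The replicates placed the strong members alike and the weak ones less so. IDR peaks are chosen from these same replicates by reproducibility, so agreement at the genes with an IDR peak is partly built in. Over the 21 members listed in both, the ranks had a Spearman correlation of 0.83, described across genes that share the same libraries. Replicate summits were 4 to 114 bp apart (median 28) at the 8 genes with an IDR peak, and 0 to 794 bp apart (median 48) over the 21 genes. Of the 6 members listed in 1 replicate alone, 5 were Polr3 genes (Polr3A, Polr3C, Polr3G, Polr3I and Polr3K) and 1 was Polr2M. Over all protein coding genes 20.5% were listed in 1 replicate alone, a share close to that of the members. Taking the 3033 strongest regions of each replicate, 9 members had a promoter summit in replicate 2 (30.0%, against 17.3% of all genes) and 8 in replicate 3 (26.7%, against 17.2%). The 7 genes in both were the IDR genes other than Polr3E. Polr2K and Polr3E were added in replicate 2, and Polr1A in replicate 3.

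Every IDR summit at a polymerase gene lay upstream of the gene's nearest start, between 200 and 12 bp away (median 142 bp). At Polr1D, which has 2 starts, the summit was nevertheless inside the gene, in an intron. Over all protein coding genes with an IDR promoter summit, 87.4% lay upstream (median 109 bp upstream). With the promoter distance set to 200 bp the same 8 members were counted, against 13.0% of all genes, and at 1000 bp the same 8 again, against 19.9%. At the 17 members with a pooled promoter summit and no IDR peak, 7 of the strongest summits lay upstream and 10 downstream, out to 476 bp. That is 41.2% upstream, against 55.7% over all 5340 protein coding genes of that kind, and the difference was not tested. Of these, 6 lay in coding exons of the member itself: Polr1A, Polr1E, Polr2G, Polr2M, Polr3C and Polr3F.

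Most of these peaks also stand beside another gene that starts in the opposite direction. At 7 of the 8 genes with an IDR peak, all but Polr2F, a further gene started within 500 bp of the summit (87.5%). Counted alike, the share was 62.8% among all protein coding genes with an IDR promoter summit. These shares take in genes starting in either direction, so they are not shares of divergent pairs. The difference was not tested. Start-to-start distances were 232 bp between Polr2C and both PolG2 and GatC, 235 bp between Polr2J and CG15141, 243 bp between Polr2B and 140up, 259 bp between Polr2H and CG11247, 333 bp between Polr1D and brat, and 465 bp between Polr3E and CG10584. brat encodes a translational repressor and tumour suppressor. The strongest pooled summit was nearer to the neighbour's start at Polr2C (32 bp), Polr2H (66 bp, inside the UTR of CG11247) and Polr2J (56 bp). For Polr2C the replicate 2 summit was 80 bp upstream of the Polr2C start. A further pooled region sat 6 bp downstream of that start (signal value 49.6, rank 4219). Counting each summit for the nearest start alone, 4 members kept an IDR peak (Polr1D, Polr2B, Polr2F and Polr3E), against 12.7% of all genes. Which gene of a pair a peak acts on was not tested. Among members without an IDR peak, Polr2D starts at the same base as Ada2a, and Polr3K at the same base as Tcs1, so their summits cannot be assigned to one gene.

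**Figure D2:**
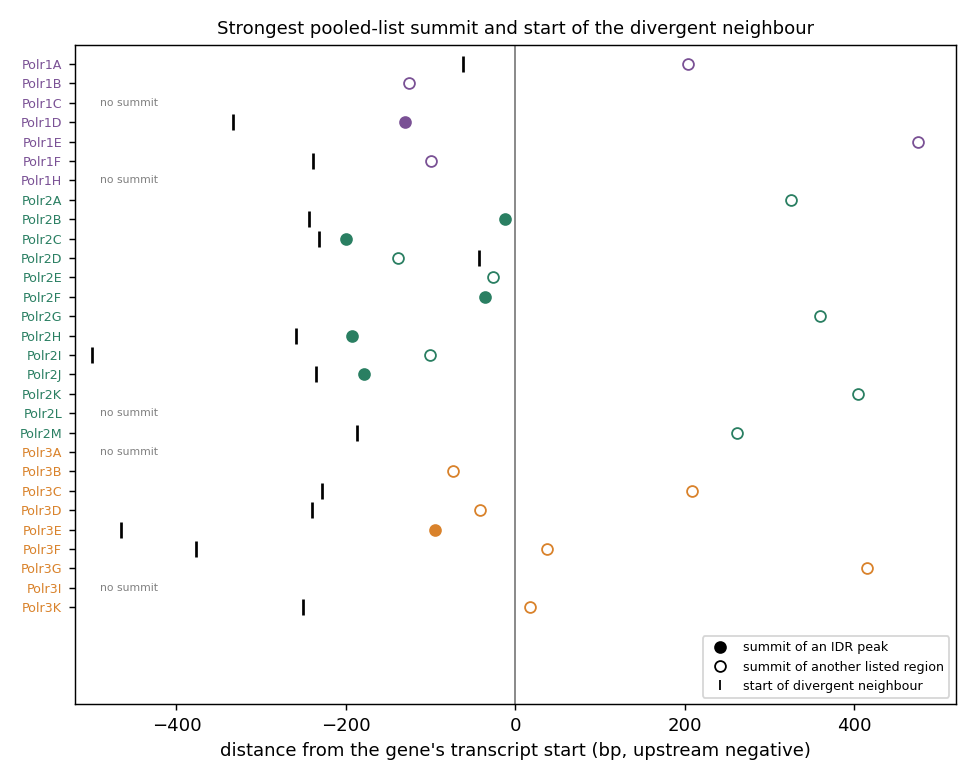
Distance in bp from the transcript start of 29 genes (0, upstream negative) to the strongest pooled-list summit. Filled points are IDR peaks, open points other listed regions, and ticks mark the start of a divergent neighbour within 500 bp of the summit. The 7 filled points lie between 200 and 12 bp upstream of the gene's nearest start, and 6 lie between that start and a divergent start. Polr1D has 2 starts, and its summit is in an intron of the gene.

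The sequence under 4 of the strongest summits is shown because it differs from gene to gene although all are IDR peaks. Each line gives 50 bp on either side of the pooled summit on dm6, read on the strand of the gene, with matches to the words searched in capitals. The words, on both strands, were TATCGATA (the DRE, bound by DREF), CAACACTG (the leading 8-mer of all peaks), CANCNCTG (which covers it and its relatives), CANCNCTA (core promoter motif 7), GGTCACAC (the core of the M1BP motif), TATAAA and GAGAG.
Polr2F, chr3R:5371709-5371809, plus strand: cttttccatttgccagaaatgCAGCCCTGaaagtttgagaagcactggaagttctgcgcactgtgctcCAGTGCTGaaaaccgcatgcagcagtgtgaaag
Polr2H, chr3L:21728689-21728789, plus strand: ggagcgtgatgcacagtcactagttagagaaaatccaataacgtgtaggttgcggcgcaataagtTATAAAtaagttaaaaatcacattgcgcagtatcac
Polr2J, chr2L:17410535-17410635, minus strand: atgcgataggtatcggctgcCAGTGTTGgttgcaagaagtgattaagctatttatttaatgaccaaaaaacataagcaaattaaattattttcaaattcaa
Polr2B, chr3R:14125729-14125829, plus strand: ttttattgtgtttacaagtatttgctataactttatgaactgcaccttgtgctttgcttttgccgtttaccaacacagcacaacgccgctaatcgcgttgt

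The Polr2F window held 2 matches to CANCNCTG, and the Polr2J window held CAACACTG itself, read as CAGTGTTG on the gene's strand. The Polr2H window held TATAAA alone, and the window of Polr2B held none of the 7 words. Within 50 bp of the summit, CANCNCTG was present at 3 of the 8 genes with an IDR peak (Polr2F, Polr2J and Polr2C) and at 0 of 17 members with weaker listed regions. It was present at 18.3% of all 1933 IDR peaks at promoters and at 7.41% of the 8197 other promoter regions of the pooled list. CANCNCTG covers the leading 8-mer of these same peaks and was added after the data were seen. Its higher share at IDR peaks is therefore partly built in. The DRE was within 50 bp of the summit at none of the 25 members with a pooled promoter summit, against 4.60% of all IDR promoter peaks and 2.65% of the other promoter regions, so that a count of 0 is near the background. The windows of the 8 genes were A/T-rich, with a median GC content of 30.7% (28.7% to 49.5%), against 38.6% over all IDR promoter peaks. At the 17 members with weaker regions the median was 40.6%, and in the other promoter regions of the pooled list it was 45.5%. A match is a description of letters and not evidence of a bound site.

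The M1BP core, a word of housekeeping promoters, was present at more of the polymerase gene starts than over all promoters. In the 300 bp from 250 bp before the start, GGTCACAC was present at 9 of 30 members (30.0%), against 7.70% of 13945 protein coding promoters. Polr2D, Polr2G, Polr2I, Polr2L, Polr3A, Polr3E, Polr3I and Polr3K were among them. It began within 60 bp of the start at 8 of the 30 members (26.7%), against 5.87% of all promoters, a distance chosen after the positions were seen. Among promoters that hold the word it did so at 8 of 9 members, against 76.2% of all. TATCGATA was present at 4 members (13.3%), Polr2D, Polr2L, Polr3A and Polr3B, against 9.36% of promoters, a share near the background. Polr2D, Polr2L and Polr3A had both words. Starts of 4 genes are shown for these words, 60 bp on either side of the start, with the words in capitals.
Polr2L, chr3R:24717451-24717571, plus strand: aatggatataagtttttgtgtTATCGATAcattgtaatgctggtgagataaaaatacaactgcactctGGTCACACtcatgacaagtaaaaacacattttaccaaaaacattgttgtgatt
Polr3A, chrX:15762896-15763016, plus strand: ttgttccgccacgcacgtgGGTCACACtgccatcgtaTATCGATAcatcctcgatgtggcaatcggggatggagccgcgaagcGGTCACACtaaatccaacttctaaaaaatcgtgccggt
Polr2D, chr3R:18255427-18255547, minus strand: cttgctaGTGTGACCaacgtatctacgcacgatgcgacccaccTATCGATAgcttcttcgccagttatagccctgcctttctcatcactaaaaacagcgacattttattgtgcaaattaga
Polr3E, chr3L:21031765-21031885, plus strand: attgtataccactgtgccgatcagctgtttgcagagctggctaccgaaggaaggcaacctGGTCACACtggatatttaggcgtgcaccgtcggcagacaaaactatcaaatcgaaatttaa

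Of the 9 members with GGTCACAC, 2 had an IDR peak, Polr3E among them, and of the 21 without it 6 did. Over all genes the share with an IDR peak was 25.2% with the word and 16.9% without it. Of the 4 members with the DRE, 0 had an IDR peak and 2 had a pooled promoter summit (Polr2D and Polr3B). Over all genes with the DRE, 28.5% had an IDR peak and 84.4% a pooled promoter summit. Polr2L and Polr3A thus carry both words within 60 bp of the start and no promoter summit in the pooled list. With 4 and 9 genes these counts are small, and a difference from all genes was not tested. The 8-mer CAACACTG was in the promoter window of 1 member, Polr2J, at 2 places, against 3.49% of all promoters.

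**Figure D3:**
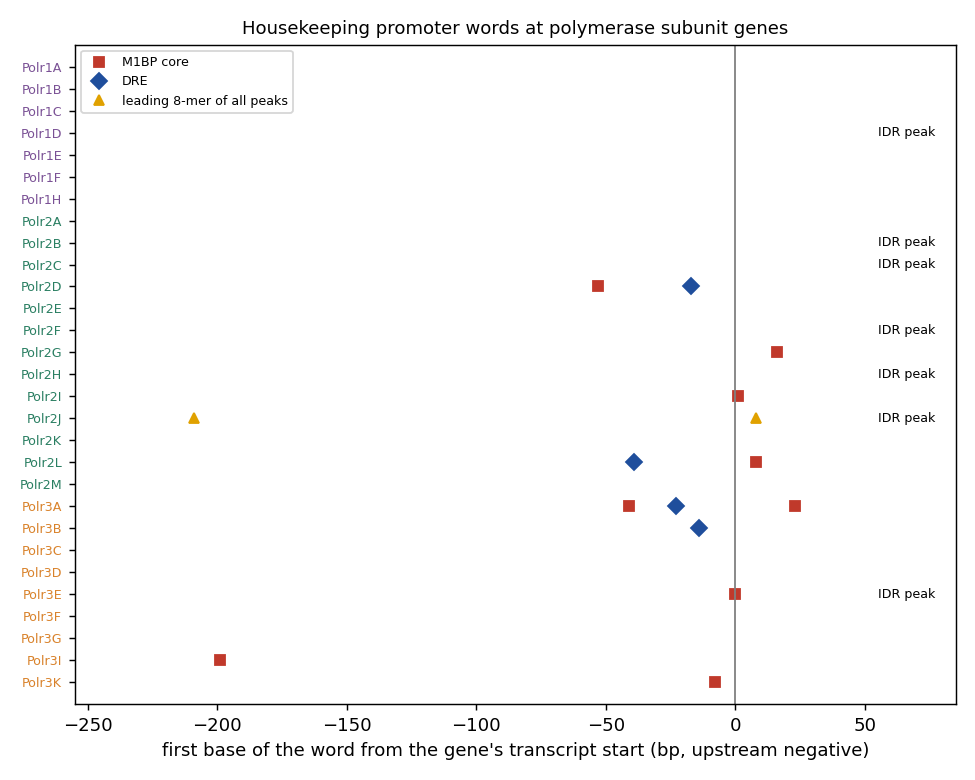
Position of the first base of 3 words in the 300 bp around the starts of 29 genes (0, upstream negative, in bp). Squares are the M1BP core, diamonds the DRE and triangles the leading 8-mer of all peaks, and genes with an IDR peak are marked. The diamonds stand at Polr2D, Polr2L, Polr3A and Polr3B, none of them marked.

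Genes for the proteins that load and steer the polymerases were scored in the same way. The lists of these genes were chosen with earlier results of these data known, so the counts are a description. An IDR promoter summit stood at 8 of the 30 subunit genes, against 28 of 59 partner genes matched by symbol or synonym (47.5%) and 17.5% of all protein coding genes. Among genes of RNA polymerase II initiation the count was 10 of 18 (55.6%, interval 30.8% to 78.5%). Among them were the TFIIH genes Ssl1 (signal value 905), Tfb5 (110), mrn (100), Cdk7 (95.5), Tfb4 (95.4) and CycH (72.9), beside TfIIA-S (186), TfIIA-L (95.9), TfIIB (81.7) and TfIIEalpha (62.9). The TFIIH genes Tfb1, Xpd, hay and Mat1 had pooled signal values of 59.0, 47.2, 36.8 and 19.6 and no IDR peak. Tbp, the gene of the TATA-binding protein, had a pooled signal value of 23.8 and no IDR peak. Genes of elongation and pausing had 10 of 23 (43.5%, 23.2% to 65.5%), led by Nelf-E (299) and Nelf-A (139) of the pausing factor NELF, dre4 (112), Ctr9 (111), Spt6 (109) and spt4 (78.8). lilli (67.3), TH1 (65.9), CycT (64.1) and atms (63.3) were nearer to the threshold.

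For RNA polymerase III, Polr3E, with a signal value of 71.0 in the pooled list (rank 2507), had a weaker peak than each of the 4 factor genes with an IDR peak. Bdp1, a TFIIIB subunit, had 209 in replicate 2, 317 in replicate 3 and 532 in the pooled list (rank 47), 64 bp upstream of its start. Brf, another TFIIIB subunit, had 106, 215 and 323 (pooled rank 128), 105 bp upstream. La (108), which binds the ends of RNA polymerase III transcripts, and Pbp95 (86.4), of the complex that activates small nuclear RNA genes, also had IDR peaks, giving 4 of 8 (interval 15.7% to 84.3%). Trf, Maf1, Pbp45 and Pbp49 did not. None of the 3 RNA polymerase I factor genes had an IDR peak (interval up to 70.8%, which holds the 17.5%). Pooled signal values were 33.1 for TAF1B and 15.9 for Tif-IA. The third, udd, had no pooled promoter summit and was listed in replicate 3 alone (20.9). Of 4 genes for polymerase assembly chaperones 3 had an IDR peak, Pih1D1 (266), spag (89.8) and rept (88.7). That is 75.0% (interval 19.4% to 99.4%), against 17.5% of all protein coding genes, and the difference was not tested. PolrMT, the mitochondrial RNA polymerase, had 85.8, while TFAM (25.6) and mtTFB2 (16.5) did not reach the IDR peaks.

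Many of these peaks are shared with a neighbour as well, such as Chro at Ssl1, RpL14 at Nelf-E, sds22 at Brf and CG6565 at Bdp1. Over all protein coding genes with an IDR promoter summit, 62.8% had another gene starting within 500 bp of it. For 17 of the 28 partner genes the partner held the start nearest to an IDR summit, Brf and Bdp1 among them, and Ssl1 and Nelf-E not. Of all protein coding genes, 17.5% had an IDR promoter summit and 12.7% held the start nearest to one. The difference between subunit genes and partner genes was not tested, since genes are not replicates.

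**Figure D4:**
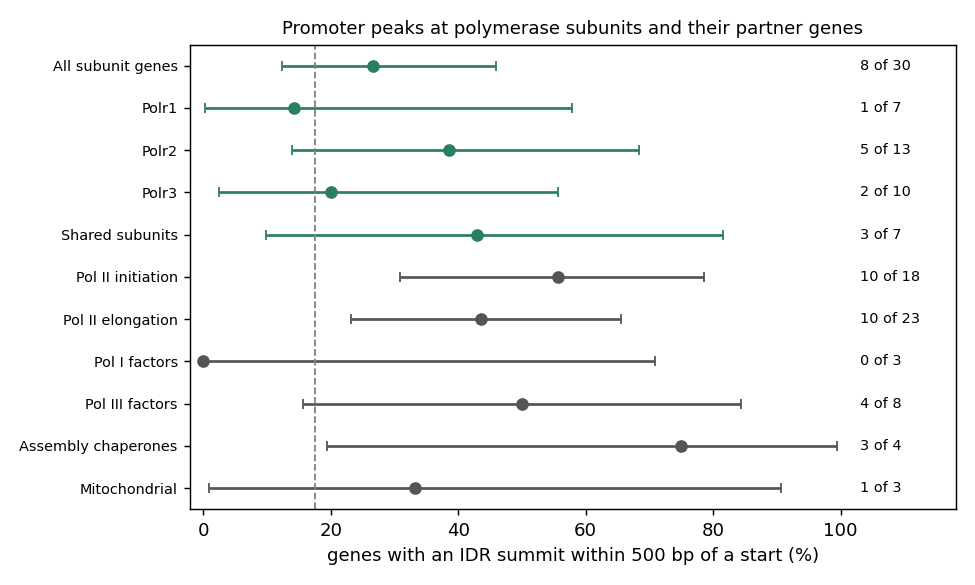
Percent of genes with an IDR summit within 500 bp of a start, for the polymerase genes (green) and partner genes (grey). Bars are exact 95% intervals, counts stand at the right, and the dashed line is the 17.5% of all protein coding genes. The intervals of RNA polymerase II initiation, RNA polymerase II elongation and assembly chaperone genes lie above the line. Those of the subunit groups drawn cross it. The assembly subunit genes (interval 19.4% to 99.4%) are not drawn as a group. The groups were chosen with earlier results of these data known, and no difference was tested.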

How the data were processed

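ChIP-seq of fu2-GFP was done in 2 biological replicates of whole embryos, with chromatin sheared to 200 to 800 bp, per the labels. The authors deposited narrowPeak lists on dm6 and dm3, and the 4 dm6 lists were used. Per the file manifests each replicate list came from its own alignment and 1 further file that they do not describe, the pooled list from both alignments and that file, and the IDR peaks from these lists. For every region the authors deposited a signal value, a q-value as its −log10 and, as the other value used, a summit offset in bp. All 3033 IDR peaks hold the highest −log10 q-value of the pooled list, so they were ranked by signal value. The labels name a possible control experiment, not analysed here, and neither they nor the manifests say whether the undescribed file is that control or what the signal value is relative to. Aligner, caller and thresholds are not given in the sources used here.

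Positions were converted to 1-based coordinates. Gene models were those of Ensembl (release 115, BDGP 6.54), leaving out transposable elements, with sequence from the RefSeq genome of the same assembly (Release 6). Each gene was given its strongest promoter summit in each list. Members and lists were chosen with earlier results of these data known. The rule names every member, of which 1 is counted but not reported here individually, and partner genes with an IDR peak. Of 60 partner names all but 1 duplicate gave a gene. CANCNCTG was added after the data were seen. Intervals are exact binomial. On simulated data, 2401 of 2401 promoter calls equalled those of a direct search. Python 3.11.15, scipy 1.17.1 and matplotlib 3.10.9 were used. Alternatives were promoter distances of 200 and 1000 bp, protein coding transcripts alone, regions overlapping the start by at least 1 bp, the nearest start alone, each replicate alone (as many of its strongest regions as the list holds) and the stronger part of the IDR peaks.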

Additional observations from a re-analysis of the deposited data

How the results depend on the processing

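Of 47 alternative counts, 39 stayed within 1.5 times the count given. The 8 members with an IDR promoter summit were the same under promoter distances of 200 and 1000 bp and with protein coding transcripts alone. When a region had to overlap the start there were 7 (without Polr2J), against 12.0% of all genes. Counting the nearest start alone gave 4 members in all, 2 Polr2 and 1 Polr3 gene, against 12.7% of all genes. The stronger part of the IDR peaks (the strongest 1516) gave 5 members in all, 0 Polr1 and 1 Polr3 gene, against 9.66% of all genes. With 1 replicate left out the counts ran from 8 to 9 members, from 1 to 2 Polr1 genes (2 without replicate 2, which adds Polr1A) and from 1 to 2 Polr3 genes (1 without replicate 2, which loses Polr3E). The count of 25 members in the pooled list (against 55.7% of all genes) ran from 19 to 26. It was 19 when a region had to overlap the start, against 39.4% of all genes. At a promoter distance of 1000 bp it was 26, against 64.5%. No paired analysis was possible because the 2 replicates form 1 group. The lists give no reads, so what depth limits cannot be stated.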
